A study of Sus scrofa with 30 samples.

Results

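The endometrium of cyclic gilts on day (D) 16 was compared with that on D12 of the estrous cycle. The comparison holds 9 libraries of the 30 in the series, 4 of D12 (CD12) and 5 of D16 (CD16), and every library with these labels was used. Each library was made from the endometrium of 1 Hampshire x Duroc crossbred gilt, aged 7 to 8 months, from a single commercial herd. No gene was altered and no drug was given, and the shared protocol text mentions insemination for all animals while the labels of these 9 give the stage as estrous cycle. The remaining cyclic libraries (5 of D20) shared the estimate of the spread. In addition, 10 libraries of pregnancy (5 each of PD12 and PD16) were used to set the 4 day interval of the cycle beside that of pregnancy. The libraries of D20 of pregnancy shared the scaling and the estimate of the spread in that second comparison. The samples are whole tissue, so that fewer cells of a type and less RNA per cell cannot be told apart.

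MicroRNAs (miRNAs) are short RNAs that guide Argonaute proteins to messenger RNAs, mostly through the seed, bases 2 to 8 counted from the 5′ end. An isomiR is a variant of a miRNA with bases added (ADD) or missing (DEL) at an end, and a change at the 5′ end gives it another seed. In the pig, the corpora lutea still secrete progesterone around D12 of the cycle, and in the absence of embryos prostaglandins of the endometrium bring about their regression, so that by D16 the tissue is losing progesterone.

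The sequences below carry the results that follow. They are printed as DNA letters from the 5′ end, with the seed in capitals. The first 3 are the seeds that passed the test, and the others are the canonical miR-504 sequence and sequences of 8 miRNAs described below for their values in every library.

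miR-335: tTTTTCATtattgctcctgacc

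miR-361-3p: tCCCCCAGgtgtgattctgatt

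miR-504 5′ DEL 1 nt, 3′ DEL 1 nt: gACCCTGGtctgcactctatc

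miR-504 canonical: aGACCCTGgtctgcactctatct

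miR-486: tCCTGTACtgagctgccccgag

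miR-205 3′ ADD 1 nt: tCCTTCATtccaccggagtctgt

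let-7a: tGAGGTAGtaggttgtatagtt

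miR-99a 3′ DEL 1 nt: aACCCGTAgatccgatcttgt

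miR-30d: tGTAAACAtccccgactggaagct

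miR-31 minor arm: tGCTATGCcaacatattgccatc

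miR-106b-5p: tAAAGTGCtgacagtgcagata

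miR-429: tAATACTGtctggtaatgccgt

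Human nomenclature places the miR-335 sequence on the 3′ arm of its precursor. It does the same for the miR-31 sequence. That sequence is called the minor arm because it had fewer reads than the opposite arm over all libraries of the series. The pair of miR-504 sequences shows that the loss of 1 base at the 5′ end moves the seed.

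The 9 libraries held 2431740 to 6402731 reads, of which 1923413 to 5241838 matched an annotated miRNA or isomiR sequence exactly. Levels are given in CPM, the counts scaled to a common library size of annotated reads after adjustment by trimmed means (TMM), and values are listed in the order of libraries 1 to 4 of CD12 and 1 to 5 of CD16. Reads were also summed for each miRNA (237 sums) and for each seed (258 sums). In these libraries 3 reads correspond to 0.729 to 1.65 CPM, and this limit covers counting error only, because PCR copies of 1 molecule could not be told apart from separate molecules.

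edgeR's quasi-likelihood test was used, and a feature counted as called when its p, adjusted by Benjamini-Hochberg over its whole table, was under 0.05 and its log2 fold change (log2FC) was beyond 1 in either direction. No sequence (0%) and no miRNA sum of 237 (0%) was called, and 3 seeds of 258 (1.16%) were. DESeq2, run as an alternative, called 17 sequences, 7 sums and 8 seeds. The smallest adjusted p was 0.126 among the sequences and 0.0532 among the miRNA sums. At an unadjusted p under 0.05, 94 sequences were higher on D16 (10.8%) and 55 lower (6.3%), 25 sums were higher (10.5%) and 16 lower (6.75%), and 19 seeds were higher (7.36%) and 23 lower (8.91%). The median log2FC of all sums was 0.07. With all deposited reads as library size the medians of sums and sequences moved by 0.11 and 0.13 on the log2 scale, and the share of higher features among those at an unadjusted p under 0.05 went from 61.0% to 83.3% for sums, from 63.1% to 73.3% for sequences and from 45.2% to 67.4% for seeds.

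The seed of miR-335 rose. miR-335 lies within MEST, an imprinted gene. Its 1 sequence had 20.3, 2.67, 6.18 and 9.25 CPM in CD12 and 50.5, 18.3, 83.5, 103.0 and 34.2 CPM in CD16. All CD16 libraries but library 2 lay above every CD12 library, and CD12 library 1 was the only one above the lowest of CD16. The seed sum had a log2FC of 2.62 (SE 0.61, adjusted p 0.0314 in edgeR), from 9.60 ± 7.62 CPM (SD, n = 4) to 57.9 ± 34.9 CPM (SD, n = 5). Without CD12 library 1 the log2FC was 3.27. On D20 the level was 27.6 ± 17.4 CPM (SD, n = 5).

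The seed of miR-361-3p also rose. Both of its sequences share the seed, and together they had 8.78, 7.77, 3.33 and 6.17 CPM in CD12 and 21.3, 16.6, 21.4, 26.5 and 30.0 CPM in CD16. The groups did not overlap. The log2FC was 1.82 (SE 0.44, adjusted p 0.0314), from 6.51 ± 2.38 to 23.2 ± 5.21 CPM, a 3.56-fold difference of the means. The leading sequence had a log2FC of 1.56 and the sequence with 1 base more at the 3′ end one of 2.42. In CD12 the longer sequence fell short of the minimum of reads that the study's annotation required. Within this comparison it could be listed only through CD16, where it was high. Its log2FC and its part in the call of the seed are therefore not independent of that selection. Tested alone, the leading sequence had an adjusted p of 0.147 in edgeR and was not called.

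The third called seed belongs to 1 isomiR of miR-504, a miRNA known to act on the messenger of p53 in human cells, and it fell. The isomiR lacks 1 base at each end. It had 4.39, 10.9, 14.3 and 7.32 CPM in CD12 and 0.608, 2.11, 1.02, 1.74 and 2.50 CPM in CD16, without overlap. The log2FC was -2.51 (SE 0.60, adjusted p 0.0314), and no CD16 library had more than 6 reads of it. CD16 thus fell short of the minimum of reads that the study's annotation required. Within this comparison the isomiR could be listed only through CD12, where it was high, so its call is not independent of that selection. The other 3 sequences of miR-504, which carry the canonical seed, did not pass the test: their log2FC were -0.03, -0.81 and 0.06, and the sum over all 4 was 47.7, 50.04, 90.8 and 70.9 CPM in CD12 and 37.1, 41.9, 14.3, 36.1 and 65.1 CPM in CD16.

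Each of the 3 calls rested on 1 or 2 sequences of 1 miRNA. Tested as miRNA sums, the same reads of miR-335 and miR-361-3p had an adjusted p of 0.0532 each in edgeR and were not called. Tested as a sequence, miR-335 had 0.126. All 3 were lost without CD12 library 2, 3 or 4 (adjusted p 0.0943, 0.173 and 0.109) and without CD16 library 4 (0.0976). Without CD16 library 3 the adjusted p was 0.0570 for miR-335 and miR-361-3p and 0.0581 for the miR-504 isomiR. The call of miR-361-3p was also lost without CD16 library 5 (0.104), and that of the miR-504 isomiR without CD16 library 1 (0.0690). With the replicate number as a block none of the 3 was called (adjusted p 0.0638 for miR-335 and 0.170 for the others). Under that block the log2FC were 2.64 for miR-335, 1.71 for miR-361-3p and -2.37 for the miR-504 isomiR. With 1 library left out they were 2.22 to 3.27, 1.54 to 1.97 and -2.80 to -2.28, in the same order.

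**Figure D1:**
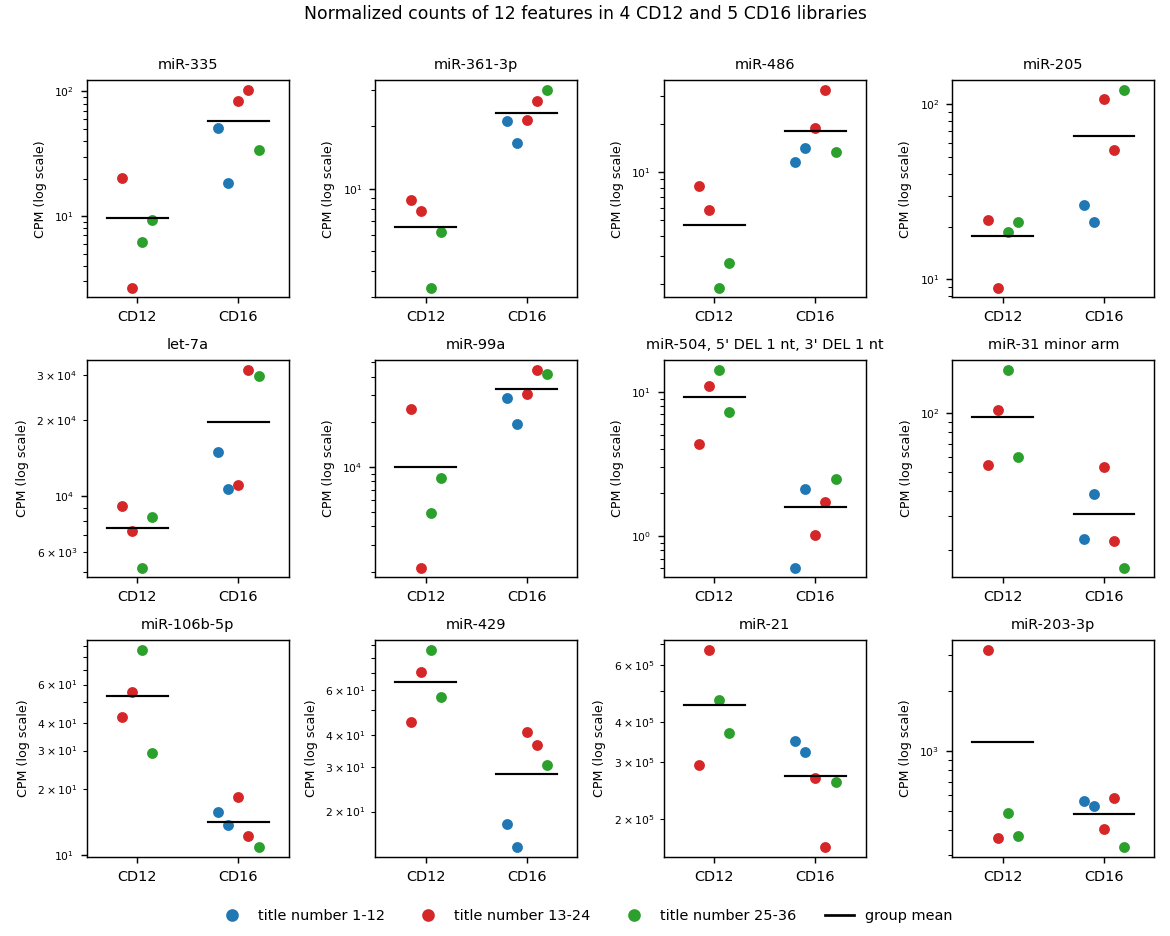
Normalized counts in CPM on log axes of 12 features in the 4 CD12 and 5 CD16 libraries, coloured by the library number in the sample title, with the group mean as a line. The libraries of miR-361-3p, miR-486, let-7a, the miR-504 isomiR, miR-31 minor arm, miR-106b-5p and miR-429 did not overlap between days, and the CD12 mean of miR-203-3p lies between library 1, at 3205 CPM, and the other 3.

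Sample titles number the libraries from 1 to 36. Numbers 13 to 24 include CD12 libraries 1 and 2 and CD16 libraries 3 and 4. Numbers 25 to 36 include CD12 libraries 3 and 4 and CD16 library 5, and numbers 1 to 12 include CD16 libraries 1 and 2 and no CD12. The labels mention 3 pools of barcoded libraries, but which library was in which pool was not given in the sources used here. Reads 1 substitution away from the 20 most abundant sequences showed a difference along them: A-to-C substitutions numbered 5.24 to 9.71 per 10000 A bases in the 12 libraries numbered 13 to 24 and 3.04 to 4.96 in the other 18 of the series. In the CD12 libraries the rate was 6.82, 6.76, 3.22 and 3.11, and in CD16 it was 4.78, 3.90, 7.48, 9.19 and 4.96. This was seen in the data first and no test was run on it.

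**Figure D2:**
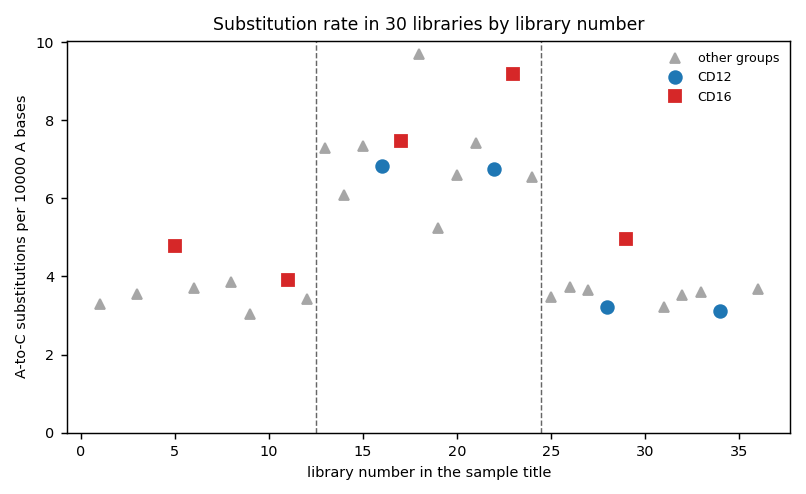
A-to-C substitutions per 10000 A bases in the 20 most abundant annotated sequences against the library number in the sample title, for 30 libraries, with CD12 and CD16 marked and dashed lines after numbers 12 and 24. All 12 libraries between the lines lie at 5.24 or more, and all others at 4.96 or less.

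The called features were therefore also set out within these bands, as log2 ratios of mean CPM plus 0.5. Within numbers 13 to 24 (2 libraries against 2) the ratio was 2.97 for miR-335, 1.48 for miR-361-3p and -2.12 for the miR-504 isomiR. Within numbers 25 to 36 (1 CD16 library against 2 of CD12) it was 2.08, 2.54 and -1.91. With the bands as a term in the edgeR fit, 13 sums were called, 9 higher (3.8%) and 4 lower (1.69%). Higher were miR-205 (log2FC 2.22), miR-335 (2.73), miR-361-3p (1.97), miR-486 (1.87), miR-1468 (1.49), miR-1271 (1.77), let-7a (1.70), let-7c (1.38) and a short sequence shared by let-7a and let-7c (2.18). Lower were miR-542-3p (-1.65), miR-345 (-3.59), miR-106b-5p (-2.51) and the minor arm of miR-31 (-1.94). In that fit the seeds of miR-335 and miR-361-3p kept an adjusted p of 0.0154, and that of the miR-504 isomiR had 0.0584.

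Among the miRNA sums, libraries of the days did not overlap for 6 that were higher on D16 (2.53% of 237) and 8 that were lower (3.38%). None of the sums described from here on was called in the fit without bands, and adjusted p-values are from edgeR. After miR-335, the largest positive estimate among sums of at least 10 CPM was that of miR-486. This miRNA, abundant in erythrocytes, had 8.23, 5.83, 1.90 and 2.70 CPM in CD12 and 11.6, 14.1, 18.8, 32.6 and 13.3 CPM in CD16 (log2FC 1.95, SE 0.52, adjusted p 0.0752). All CD16 libraries lay above all of CD12. In CD12, however, miR-486 fell short of the minimum of reads that the study's annotation required. Within this comparison it could be listed only through CD16, where it was high. Its separation between days and its calls in other fits are therefore not independent of that selection. Leaving out 1 library gave a log2FC of 1.57 to 2.31 and an adjusted p of 0.0328 (called, without CD12 library 1) to 0.283. The other erythroid miRNAs did not show this separation: miR-451, the most abundant of them, had 848.4 ± 372.3 CPM in CD12 and 1370 ± 1055 CPM in CD16, with CD16 library 1 at 3215 CPM.

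miR-205, an epithelial miRNA that restrains the ZEB repressors of E-cadherin, had 21.9, 9.0, 18.5 and 21.2 CPM in CD12 and 26.5, 21.1, 105.9, 54.3 and 120.1 CPM in CD16 (log2FC 1.90, SE 0.51, adjusted p 0.0752). CD16 libraries 3, 4 and 5 stood above the rest, and library 2 lay within the range of CD12. Without library 2 the sum was called (log2FC 2.12, adjusted p 0.0380), while without CD16 library 5 the log2FC was 1.44, without CD12 library 3 the adjusted p was 0.283, and with the replicate block it was 0.218. The log2FC of its isomiRs are given without a test of their difference. In CD12 the canonical sequence fell short of the minimum of reads that the study's annotation required. Within this comparison it could be listed only through CD16, where it was high. The sequence with 1 base added at the 3′ end, printed above, had a log2FC of 2.27 (adjusted p 0.126) with no overlap between days, the canonical sequence 2.60, and the sequence lacking 1 base 0.05, at a mean of 6.04 CPM.

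Of the let-7 family, which promotes differentiation and shares the seed printed above, let-7a had 9119, 7297, 5226 and 8285 CPM in CD12 and 14960, 10635, 11064, 31508 and 29919 CPM in CD16 (log2FC 1.39, SE 0.43, adjusted p 0.137). All 5 CD16 libraries were above all 4 of CD12, and libraries 4 and 5 were the highest. let-7c had a log2FC of 1.03 and let-7g one of 0.78. The most abundant member, let-7f, had 65555 ± 10951 CPM (SD, n = 4) in CD12 and 69693 ± 10766 CPM (SD, n = 5) in CD16. Over 15 sums of the family, 3 were higher and 3 lower at an unadjusted p under 0.05, against 10.5% and 6.75% of all sums, and the median log2FC was 0.09. The 3 lower ones were rare arms, among them the minor arms of let-7g (-2.16) and let-7i (-1.16).

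miR-99a, processed from 1 primary transcript with let-7c and miR-125b, had 24449, 2129, 4905 and 8396 CPM in CD12 and 28762, 19179, 30732, 44385 and 41335 CPM in CD16 (log2FC 1.72, SE 0.62, adjusted p 0.207). CD12 library 1 reached the range of CD16 and the other 3 lay below it. Without that library the sum was called (log2FC 2.68, adjusted p 0.0328), and without CD12 library 2 the log2FC was 1.39 (adjusted p 0.389). All 6 sums of miR-99, miR-100 and miR-125 had a log2FC above 0, as did 129 of all 237 sums, with a median of 0.83 against 0.07 over all sums, and 1 of them was higher at an unadjusted p under 0.05, against 10.5% of all sums. Summed over the list, the level was 50788, 5603, 11104 and 21565 CPM in CD12 and 38258 to 71435 CPM in CD16. The canonical sequence of miR-100 did not overlap between days, at 719.8 to 1220 CPM in CD12 and 1782 to 3996 CPM in CD16 (log2FC 1.52, adjusted p 0.147).

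miR-30d had 4380, 3128, 3988 and 3643 CPM in CD12 and 18132, 7017, 2651, 8485 and 17114 CPM in CD16 (log2FC 1.497, SE 0.47, adjusted p 0.137). CD16 library 3 was the lowest of all 9. Its 6 sequences ranged from a log2FC of -0.18, for the one lacking 4 bases at the 3′ end, to 2.08, for the one lacking 1 base, which had 1.48 without CD16 library 5. miR-148b-3p, of the miR-148 family, had 4207 ± 1386 CPM in CD12 and 13365 ± 7599 CPM in CD16 (log2FC 1.67, adjusted p 0.265), while its more abundant relative miR-148a-3p had 44050 ± 20683 and 40009 ± 12615 CPM. miR-23b had a log2FC of 1.18 (adjusted p 0.265), and of 0.47 without CD16 library 5. Further sums with higher means were miR-1271, miR-1468 and miR-25-3p, with log2FC of 1.38, 1.13 and 1.10 (adjusted p 0.207 each).

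In the other direction, the minor arm of miR-31 had 54.3, 104.0, 166.8 and 59.7 CPM in CD12 and 22.8, 38.8, 53.0, 22.2 and 16.3 CPM in CD16 (log2FC -1.65, SE 0.50, adjusted p 0.123). The groups did not overlap, though the lowest CD12 and the highest CD16 library were close. The opposite arm of the same precursor had 53.8 ± 15.2 and 56.3 ± 13.8 CPM (log2FC 0.06), so that the minor arm was the more abundant one in CD12 and the less abundant one in CD16 by group mean. miR-106b-5p, of the seed family of miR-17 that favours proliferation, had 42.8, 55.4, 86.5 and 29.3 CPM in CD12 and 15.8, 13.7, 18.3, 12.2 and 10.8 CPM in CD16 (log2FC -1.91, SE 0.68, adjusted p 0.207), without overlap. Its relatives miR-17-5p, miR-20a, miR-93-5p and miR-106a had log2FC of 0.04, 0.12, 0.08 and -0.48, the last at a mean of 3.83 CPM. Over the 10 sums of the proliferation list 1 was higher and 2 lower at an unadjusted p under 0.05, against 10.5% and 6.75% of all sums, with a median log2FC of 0.06.

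miR-429, of the epithelial miR-200 family, had 45.0, 70.9, 86.5 and 56.3 CPM in CD12 and 17.9, 14.5, 41.3, 36.5 and 30.4 CPM in CD16 (log2FC -1.21, SE 0.45, adjusted p 0.207), without overlap. miR-200b-3p, encoded beside it, had a log2FC of 0.97 (unadjusted p 0.0314), so the members of the family differed in sign. The epithelial list as a whole had 3 of 14 sums higher and 2 lower at an unadjusted p under 0.05, against 10.5% and 6.75% of all sums, and its summed level was 16502 ± 1635 CPM (SD, n = 4) in CD12 and 21674 ± 7778 CPM (SD, n = 5) in CD16. The lower ones were miR-429 and miR-203-3p, an epidermal miRNA whose value rested on 1 library: without CD12 library 1 its log2FC of -1.21 became 0.23. miR-542-3p had 648.3, 600.3, 318.9 and 290.9 CPM in CD12 and 307.4, 293.3, 254.1, 163.4 and 100.9 CPM in CD16 (log2FC -1.05, adjusted p 0.265). All 6 sums of the X-linked miR-424 and miR-450 list, to which it belongs, had a log2FC below 0, as did 107 of all 237 sums, with a median of -0.70 against 0.07 over all sums, and 1 was lower at an unadjusted p under 0.05, against 6.75% of all sums.

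**Figure D3:**
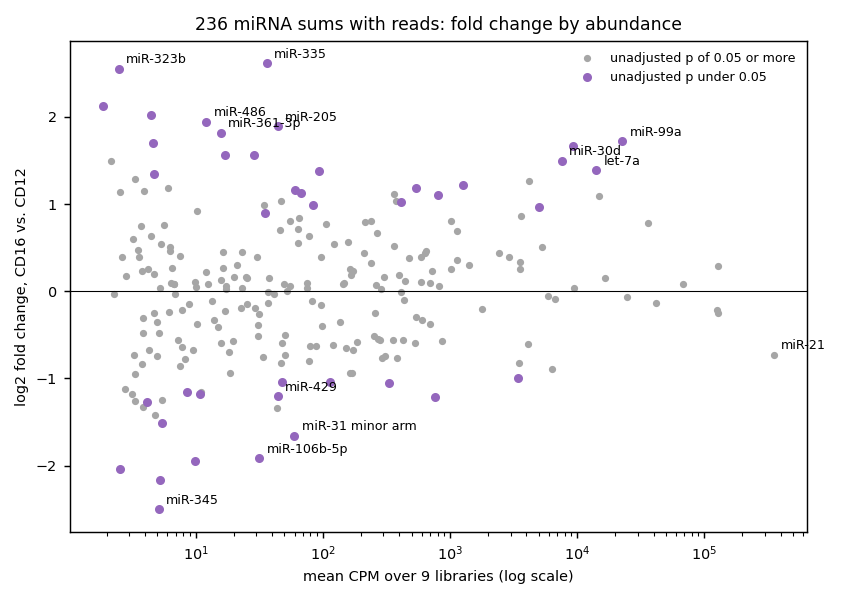
log2 fold change of D16 against D12 for the 236 miRNA sums with reads in the 9 libraries, against mean CPM on a log axis; purple points have an unadjusted p under 0.05. miR-335, at 2.62, has the largest estimate among sums of at least 10 CPM, and miR-21 lies furthest to the right, at -0.72.

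miR-21, raised in many proliferating and inflamed tissues, was the most abundant miRNA and held 25.1% to 52.7% of the annotated reads in CD12 and 18.9% to 33.6% in CD16. Its level was 293352, 671512, 466965 and 370914 CPM in CD12 and 349880, 323728, 267198, 162884 and 259680 CPM in CD16 (log2FC -0.72, SE 0.38, adjusted p 0.312). The groups overlapped, and CD12 library 1 was lower than CD16 libraries 1 and 2. All 14 of its sequences with at least 10 CPM had a log2FC below 0, from -1.32 to -0.23. Among the other most abundant miRNAs, miR-143-3p, typical of stroma and smooth muscle, had 140779 ± 43312 and 118301 ± 35752 CPM, and miR-10a-5p and miR-10b, encoded in the HOX clusters, ranged from 30476 to 342664 CPM and from 51844 to 287938 CPM, so that their spread within a day exceeded the difference between the day means.

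Lists of miRNAs that mark cell types or share a locus were set beside these values. Muscle was represented almost wholly by miR-1, with 1612, 1545, 4547 and 1656 CPM in CD12 and 3812, 1936, 2912, 1884 and 17511 CPM in CD16, and neither miR-133a nor miR-133b was among the annotated sequences. The log2FC of miR-1 was 1.26, and 0.08 without CD16 library 5. The part of muscle in the other results was not tested. The leukocyte list, led by miR-342, summed to 281.2 ± 149.5 CPM in CD12 and 200.9 ± 108.2 CPM in CD16. CD12 library 2 had the highest sum, 491.9 CPM, and without it the log2FC of miR-342 went from -0.59 to -0.005. The ciliated epithelium list, led by miR-34c, summed to 7110, 2581, 19747 and 4760 CPM in CD12 and 4628 ± 1764 CPM in CD16. CD12 library 3 stood above the other 8, and without it the log2FC of miR-34c went from -0.89 to -0.12. All 4 sums of the latter had a log2FC below 0, against 107 of all 237 sums, and none was at an unadjusted p under 0.05, against 6.75% lower of all sums. In the imprinted DLK1-DIO3 cluster 4 of 20 sums were higher and 1 lower at an unadjusted p under 0.05, against 10.5% and 6.75% of all sums, with a median log2FC of 0.15. Its member miR-323b had at most 3 reads in any CD12 library and 2.82 to 4.78 CPM in CD16. miR-132, which responds to CREB, also had at most 3 reads in any CD12 library and 7.30, 0.705, 0, 3.48 and 2.50 CPM in CD16, so that 1 CD16 library had no read of it.

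**Figure D4:**
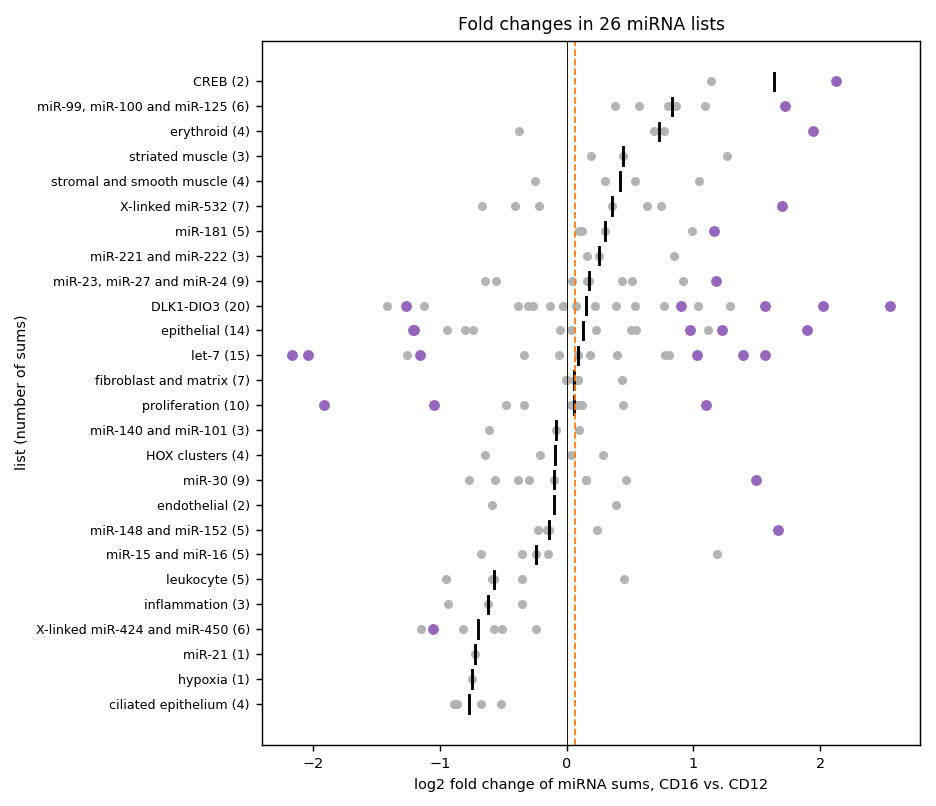
log2 fold changes of the miRNA sums in 26 lists, ordered by their median (black bars), with the number of sums in brackets; purple points have an unadjusted p under 0.05 and the dashed line is the median of all 237 sums, 0.07. Members of the let-7, epithelial and DLK1-DIO3 lists lie on both sides of 0, and all 6 of the miR-99, miR-100 and miR-125 list lie above it.

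Of the 116 miRNAs with 2 or more sequences of at least 10 CPM, 71 had all such sequences on 1 side of 0 and 45 had sequences on both. The mean position of the 3′ end was compared in limma for 90 miRNA arms with at least 100 reads in every library, and none was called. Positions are in bases from the 3′ end of the leading sequence, the most abundant of the arm in CD12 and CD16, which need not be canonical. At an unadjusted p under 0.05 there were 9 (10%), and the smallest adjusted p was 0.109. The smallest p-values were those of miR-381, at 0.494, 0.955, 0.901 and 0.895 bases in CD12 and 0.403, 0.491, 0.568, 0.249 and 0.328 bases in CD16, a difference of -0.40 (SE 0.10) with overlap through CD12 library 1, and of miR-200b-3p, at -0.33 ± 0.08 and -0.53 ± 0.08 bases. The sequence of miR-200b-3p that lacks 1 base had a log2FC of 1.70 and its leading sequence one of 0.47.

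Of 10 measures of whole libraries none differed after adjustment in exact two-sided permutation tests of 4 libraries against 5, for which the smallest possible p is 0.0159. Adjusted over 10 measures, a single measure at that p could not pass 0.05, so the lack of calls was almost fixed by the design. The share of placed reads shorter than the canonical sequence at the 3′ end was 7.57% ± 1.505 (SD, n = 4) in CD12 and 11.6% ± 2.68 (SD, n = 5) in CD16 (exact permutation p 0.0476, adjusted p 0.317). With each distinct sequence counted once the share was 42.98% in CD12 and 42.90% in CD16. That count was nearly constant, from 42.66% to 43.15% over the libraries, so it cannot show whether the difference in reads holds. The share held by the 10 most abundant sequences was 60.3% ± 4.37 and 53.4% ± 5.44 (exact permutation p 0.0952, adjusted p 0.317).

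Sequences with an RT-PCR assay, 12 in all, were also looked up, and none was called in the fit without bands. The canonical miR-205 sequence had the largest log2FC of them, 2.60 (adjusted p 0.147). In the fit with bands its log2FC was 3.10 (adjusted p 0.0296). No CD12 library had more than 12 reads of it, and CD12 fell short of the minimum that the study's annotation required. Within this comparison it could be listed only through CD16, where it was high, so these values are not independent of that selection. Canonical miR-23b came next (log2FC 1.65, adjusted p 0.197). It had 61.4, 39.6, 88.4 and 44.7 CPM in CD12 and 204.6, 80.7, 43.3, 100.8 and 489.2 CPM in CD16. Library 5 was the highest of CD16, and its libraries 2 and 3 lay within the range of CD12. The sequence of miR-302, a miRNA of embryonic stem cells, had 0 reads in all 9 libraries, which allows up to 0.729 to 1.65 CPM in each.

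The same 4 days were set beside pregnancy, with levels scaled over all 30 libraries and no animal shared. No sum, sequence or seed differed between the D16 vs. D12 change of pregnancy and that of the cycle at the threshold, with 16 sums (6.75%) at an unadjusted p under 0.05 and a smallest adjusted p of 0.216 among sums, 0.313 among sequences and 0.146 among seeds, while DESeq2 called 1 sum and 3 seeds. miR-361-3p had 14.8 CPM in PD12 and 16.1 in PD16, a log2FC of 0.12 (SE 0.31), and the difference from the cycle was -1.62 (SE 0.46, adjusted p 0.216). miR-335 had 23.3 and 28.9 CPM, a log2FC of 0.31 (SE 0.50), and a difference of -2.25 (SE 0.74, adjusted p 0.309). miR-486 and miR-205 had negative estimates in pregnancy, -0.93 (SE 0.55) and -0.51 (SE 0.54). miR-30d and miR-23b had positive ones of 0.91 and 0.95, and miR-203-3p a negative one of -1.88 (SE 0.58), with an SD above the mean in PD12 (2048 ± 2246 CPM, n = 5). Of the 41 sums at an unadjusted p under 0.05 in the cycle, 35 had the same sign in pregnancy, against 64.1% of all 237 sums. At that level in pregnancy were 5 of the 41, against 19 of all 237. Across all 237 sums Pearson's r of the 2 log2FC was 0.42, which is given as a description, since sums of 1 library share its depth and scaling.

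**Figure D5:**
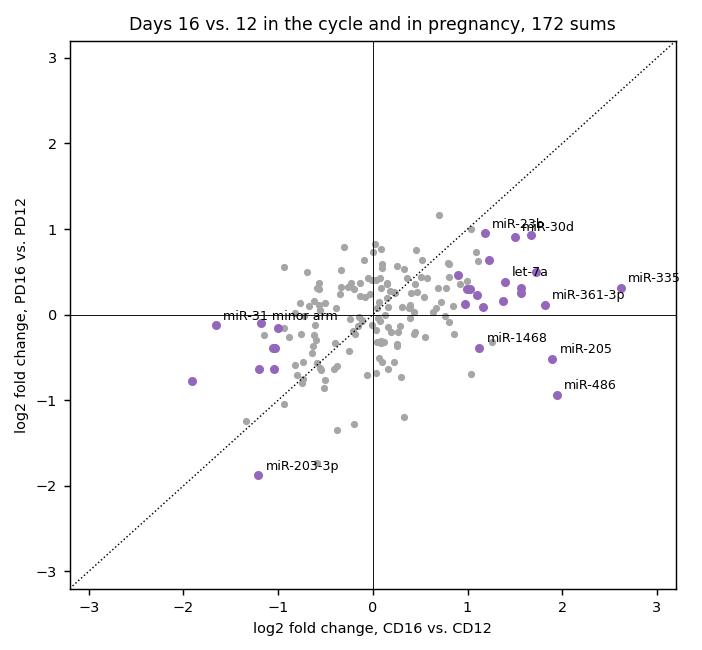
log2 fold change of D16 against D12 in pregnancy against that in the cycle for 172 miRNA sums of at least 10 CPM; purple points have an unadjusted p under 0.05 in the cycle and the dotted line marks equal values. miR-335, miR-361-3p, miR-205 and miR-486 lie far right of the line, with pregnancy estimates of 0.31, 0.12, -0.51 and -0.93.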

How the data were processed

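The authors deposited, for each library, distinct sequences of 17 to 31 nt with raw read counts, after filtering by base quality and removing adapters. Counts were joined by exact match to the study's annotated sequences, of which only names and sequences were used; that annotation required a minimum of reads in most libraries of at least 1 group of the series. Sequences of 1 name that share 12 bases were summed as an arm. TMM factors came from the 14 cyclic libraries. CD16 was contrasted with CD12 in edgeR 4.0.16 (R 4.3.3, prior count 0.125), by a single contrast with the spread of all cyclic groups. The SE is the size of the log2FC divided by the root of F. limma 3.58.1 tested end positions, and Python 3.11.15 with scipy 1.17.1 the library measures. In 5 draws of simulated sequence counts with 200 of 873 sequences changed 4-fold, 76% to 81.5% were recovered. Smaller folds and fewer changed sequences were not simulated, so this share does not give the power of the present contrast. Members, lists and tests were chosen with earlier results of these data known. Named were called features, the 12 sums and 10 sequences in each direction with the smallest p and at least 10 CPM, the 10 most abundant sums, up to 2 sums of each list and the RT-PCR sequences; other features were added after their values were seen. The labels call the libraries biological replicates. Libraries of a group differed by more than sampling noise (chi-square per degree of freedom at least 173.1). Alternatives covered the test, normalization, filter, libraries fitted, title number bands, replicate block and each library left out.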

Additional observations from a re-analysis of the deposited data

Results flagged for a closer look

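In 176 groups of 4 or 5 libraries, 15 held a library set apart from the others by a gap beyond Dixon's 95% critical value; chance flags about 1 group in 20. CD12 library 1 stood apart for miR-203-3p (3205 CPM against 363.7 to 488.2), miR-146b (647.8 against 75.1 to 89.0), miR-182 (4287 against 6406 to 6806), the sequence shared by miR-500 and miR-501 (4.39 against 1.21 to 1.54) and the 3′ end of miR-381 (0.494 against 0.895 to 0.955 bases). CD12 library 3 stood apart for miR-1 (4547 CPM against 1545 to 1656).

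CD16 library 5 stood apart for miR-1 (17511 CPM against 1884 to 3812), miR-145-3p (141.8 against 30.7 to 53.0), the miR-181a minor arm lacking 1 base at the 3′ end (65.5 against 1.02 to 9.56), miR-30c-5p lacking 2 bases at the 3′ end (27.9 against 12.0 to 16.3) and the 3′ end of miR-99b (-0.26 against -0.40 to -0.38 bases). CD16 library 3 stood apart for miR-10a-5p (342664 against 66898 to 131317 CPM) and miR-10b (287938 against 52652 to 88471 CPM), and CD16 library 1 for miR-451 (3215 against 621.4 to 1130 CPM) and miR-127 (878.4 against 322.9 to 483.4 CPM). Without CD16 library 5 the log2FC of the miR-181a isomiR went from 2.70 to 1.06.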

How the results depend on the processing

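Against 0 sequences, 0 miRNA sums and 3 seeds called, the likelihood ratio test called 16, 6 and 8, DESeq2 17, 7 and 8, the fit with title number bands 24, 13 and 9, and the newer quasi-likelihood of edgeR 4, chosen after seeing the data, 1, 2 and 6. All deposited reads as library size called 4 sums and 5 seeds, a minimum of 10 CPM 3 sums, the 9 libraries alone 3 sums, and all 30 libraries 10 sequences and 2 sums. Over all deposited sequences 2 of 20351 were called. The fit with the replicate block called 0 seeds; the numbers did not pair the animals, since deviations of same-numbered libraries correlated at -0.13, 0.02, -0.25 and 0.02. Leaving out 1 library in turn gave 0 to 5 sums, 0 to 8 seeds and 0 to 1 end positions. End positions gave 2 calls with only CD12 and CD16 and 1 with array weights. For the difference from pregnancy DESeq2 called 1 sum and 3 seeds. For library measures whose sign turned, counting each distinct sequence once gave differences (D16 minus D12, percentage points) of 0.0245 for reads of 28 to 31 nt, 0.0309 for longer 3′ ends, 0.0750 for canonical sequences, -0.11 for shifted 5′ ends and -0.0735 for shorter 3′ ends. For the ends and canonical sequences that count was nearly constant, with SDs within a day of 0.0244 to 0.208 percentage points. The signs of those differences therefore cannot show a dependence. With reads counted, leaving out 1 library gave -1.70 to 1.31 for 22 nt reads, -0.169 to 0.0527 for 28 to 31 nt, -2.31 to 0.0114 for canonical sequences, -0.0302 to 1.42 for shifted 5′ ends and -2.20 to 0.647 for annotated reads. The log2FC of miR-203-3p ranged from -1.50 to 0.23 and that of the miR-146b isomiR with 1 base added from -2.90 to 0.47, both positive only without CD12 library 1. The cause was not tested. The number of libraries and their depth of at least 1923413 annotated reads may limit features of a few CPM, which was not tested.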

Other observations

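Of 20351 deposited sequences tested, inside and outside the annotation, 2 were called in edgeR, and neither was annotated. The first, of 23 nt, differs from the miR-30d isomiR lacking 1 base at the 3′ end by 1 substitution, A20C, with positions counted from 1 at the 5′ end and the base of the isomiR given first. It had 0 reads in all 4 CD12 libraries and 68, 30, 1, 4 and 55 reads in CD16 (adjusted p 0.0266). In CPM, CD16 libraries 3 and 4 had 0.509 and 1.74, and the other 3 had 10.6 to 22.9. The miR-30d isomiR itself had 552.9, 451.6, 921.2 and 429.3 CPM in CD12 and 3890, 1161, 289.8, 1581 and 5550 CPM in CD16. Whether reads of the variant arose from the isomiR by substitution was not tested. The second, of 17 nt, had no annotated neighbour at 1 substitution. It had 8, 1329, 137 and 67 reads in CD12 and 10, 9, 1, 0 and 7 in CD16 (adjusted p 0.0266). In CPM the groups did not overlap, with 4.39 in CD12 library 1 as the lowest of CD12 and 3.17 as the highest of CD16, and CD12 library 2 had the highest level, 322.9 CPM.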
